A study of Mus musculus with 6 samples.

Results

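Synaptic adhesion molecules are the membrane-bound and secreted proteins that hold a nerve terminal and its target cell together. They were described here by a list of 48 gene symbols, covering the neurexins, the LAR-type receptor phosphatases, the neuroligins, the Lrrtm, Slitrk, Lrfn and Flrt families, the latrophilins, the cerebellins, the neuronal pentraxins, the contactins and the contactin-associated Cntnap proteins. Of these symbols 44 had an entry among the 32531 gene features of each library, and all 44 were measured well enough to be tested. The symbols Lphn1, Lphn2, Lphn3 and Cntnap5 had no entry. The latrophilins are listed as Adgrl1, Adgrl2 and Adgrl3, and the Cntnap5 genes as Cntnap5a, Cntnap5b and Cntnap5c, and these 6 genes are described apart.

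The libraries came from translating ribosome affinity purification, in which an antibody against EGFP captures ribosomes with a tagged L10a protein (EGFP-Rpl10a), together with the RNA they hold. The tag was made under the control of Lhx5, a LIM-homeodomain transcription factor gene, in adult mice of the line Lhx5-TRAP DT154, and the hypothalamus of untreated control animals was used. The first group is the immunopurified RNA (IP, 3 libraries) and the second is the unbound RNA (3 libraries), which the sample titles call input, a conflict the labels do not settle. Both groups come from tagged animals of the same line, so the IP samples whichever hypothalamic cells this transgene marks. The labels do not say whether the libraries came from separate animals, so p-values measure only the spread between these libraries, which may be technical. Between 32471045 and 46293837 reads were counted in genes per IP library, and between 32926146 and 40768577 per unbound library. Levels are counts scaled to library size (CPM) and then by the TMM method over all genes, and folds are IP over unbound.

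Lhx5 stood at 56.7, 58.1 and 70.5 CPM in IP libraries 1 to 3, against 2.03, 1.86 and 6.28 CPM in unbound libraries 1 to 3. Of 20 pan-neuronal marker genes 12 were higher and 1 was lower in IP, with a median log2 fold change of 0.55. All 12 astrocyte and all 12 oligodendrocyte markers were lower, as were 7 of 8 markers of oligodendrocyte precursors and 9 of 10 of microglia, and the oligodendrocyte markers summed to between 354 and 597 CPM in IP RNA and between 3779 and 7250 CPM in unbound RNA. Unbound library 3 stood apart from the other unbound libraries. The hypothalamic peptide gene Avp was at 0.07 CPM and Hcrt at 0 there, against 38.3 CPM or more and 18.5 CPM or more in unbound libraries 1 and 2, while 12 midbrain and hindbrain markers summed to 112 CPM in it and to no more than 6.31 CPM in any other library. Striatal and cortical markers summed to between 213 and 509 CPM in IP libraries, and to 1674, 1436 and 82.2 CPM in unbound libraries 1 to 3. Of 3 GABAergic markers 2 were lower in IP, and they summed to between 440 and 579 CPM in IP RNA and between 1215 and 1482 CPM in unbound RNA. The part of these markers in the differences below was not tested. IP library 3 was lower than the other IP libraries for nearly all of the adhesion genes, as described at the end. Counts of called genes and some of the fold changes are given with and without these libraries. Family shares are given with all libraries only.

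Neurexins and LAR-type receptor phosphatases sit mainly in the presynaptic membrane and act as hubs that bind many partners across the cleft. Neuroligins, Lrrtm, Slitrk and Lrfn proteins are mainly postsynaptic and bind one or the other hub, and cerebellins and pentraxins are secreted linkers that join neurexins or the presynaptic side to glutamate receptors. Contactins and Cntnap proteins form pairs of axonal adhesion molecules, known best from the nodes of Ranvier, and in the hypothalamus, as elsewhere, the combination a neuron makes is thought to shape which synapses it forms.

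The 4 cerebellins were the adhesion genes with the largest rises among those called in IP RNA, Nrxn2, Nlgn2, Slitrk1, Slitrk5 and Cntnap2 were higher by 1.59-fold to 1.96-fold, and Ptprd and Cntn2 were lower. In all, 14 of the 44 genes were higher in IP and 2 were lower at an adjusted p under 0.05 (edgeR's quasi-likelihood test, with p-values adjusted over 16991 genes by Benjamini-Hochberg). Of all genes tested, 21.1% were called higher and 23.2% lower, so 31.8% of the adhesion genes stood above the background for higher calls and 4.55% below that for lower calls, a difference that was not itself tested. A change of 2-fold or more was called for 4 genes higher, where the background is 5.97%, and for 1 gene lower, where it is 18%. The 14 and the 4 higher genes include Cbln3, which passed the count filter only through its IP libraries. The groups did not overlap, with IP above unbound, for 14 of the genes (27.1% of all genes tested), and with IP below for 2 (28.7%). The median log2 fold change was 0.32 for the adhesion genes and -0.01 for all genes tested. In bulk RNA, fewer cells of a type and less RNA per cell cannot be told apart. IP RNA was also captured on tagged ribosomes and the other fraction was not. A gene's degree of ribosome binding therefore cannot be told apart from these either. Both limits hold for each difference below.

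Of the 16 calls 9 were made in each of the 6 fits that left out 1 library, namely Cbln1, Cbln4, Nrxn2, Nlgn2, Slitrk1, Slitrk5 and Cntnap2 as higher and Ptprd and Cntn2 as lower. Without IP library 3, 20 of the 44 genes were higher and 2 lower (20% and 20.5% of all genes). Leaving out IP library 1 or unbound library 2 gave 8 higher and 2 lower each (15.5% higher and 18.9% lower, and 14.3% and 19.1%, of all genes). Leaving out IP library 2 gave 9 and 2 (15.5% and 20%), leaving out unbound library 1 gave 12 and 2 (16.6% and 18.7%), and without unbound library 3 there were 13 higher and 3 lower (24% and 25.8%). Without library 3 of both groups, 21 were higher and 4 lower (26% and 27.3%). Within lane 2 of the sequencer, as the labels give it, which holds replicates 1 and 3 of each group, 4 were higher, namely Cbln1, Nrxn2, Nlgn2 and Slitrk1, and Ptprd alone was lower (7.49% and 14.7% of all genes). Lane 4 holds 1 library of each group and gives no test. Scaling on the pan-neuronal markers instead of all genes moved the median of all genes to -0.59 and that of the adhesion genes to -0.26, and left Cbln1, Cbln3 and Cbln4 higher and 10 genes lower (4.01% and 45.1% of all genes). The other settings gave 12 higher and 2 lower by median-ratio scaling (19.7% and 24% of all genes), 11 and 2 by library size alone (16.8% and 25.5%), 16 and 2 with no count filter (16.7% and 17.9%), and 11 and 2 of 43 with a minimum of 1 CPM in 3 libraries (23.2% and 23.1%). DESeq2 gave 15 and 2 (21.6% and 26.2%), limma-voom 13 and 2 (21.3% and 23.4%), the replicate block 18 and 2 (23.3% and 23.6%) and lane as a covariate 13 and 2 (19.6% and 22.1%). Directions below are relative to TMM scaling unless stated.

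**Figure D1:**
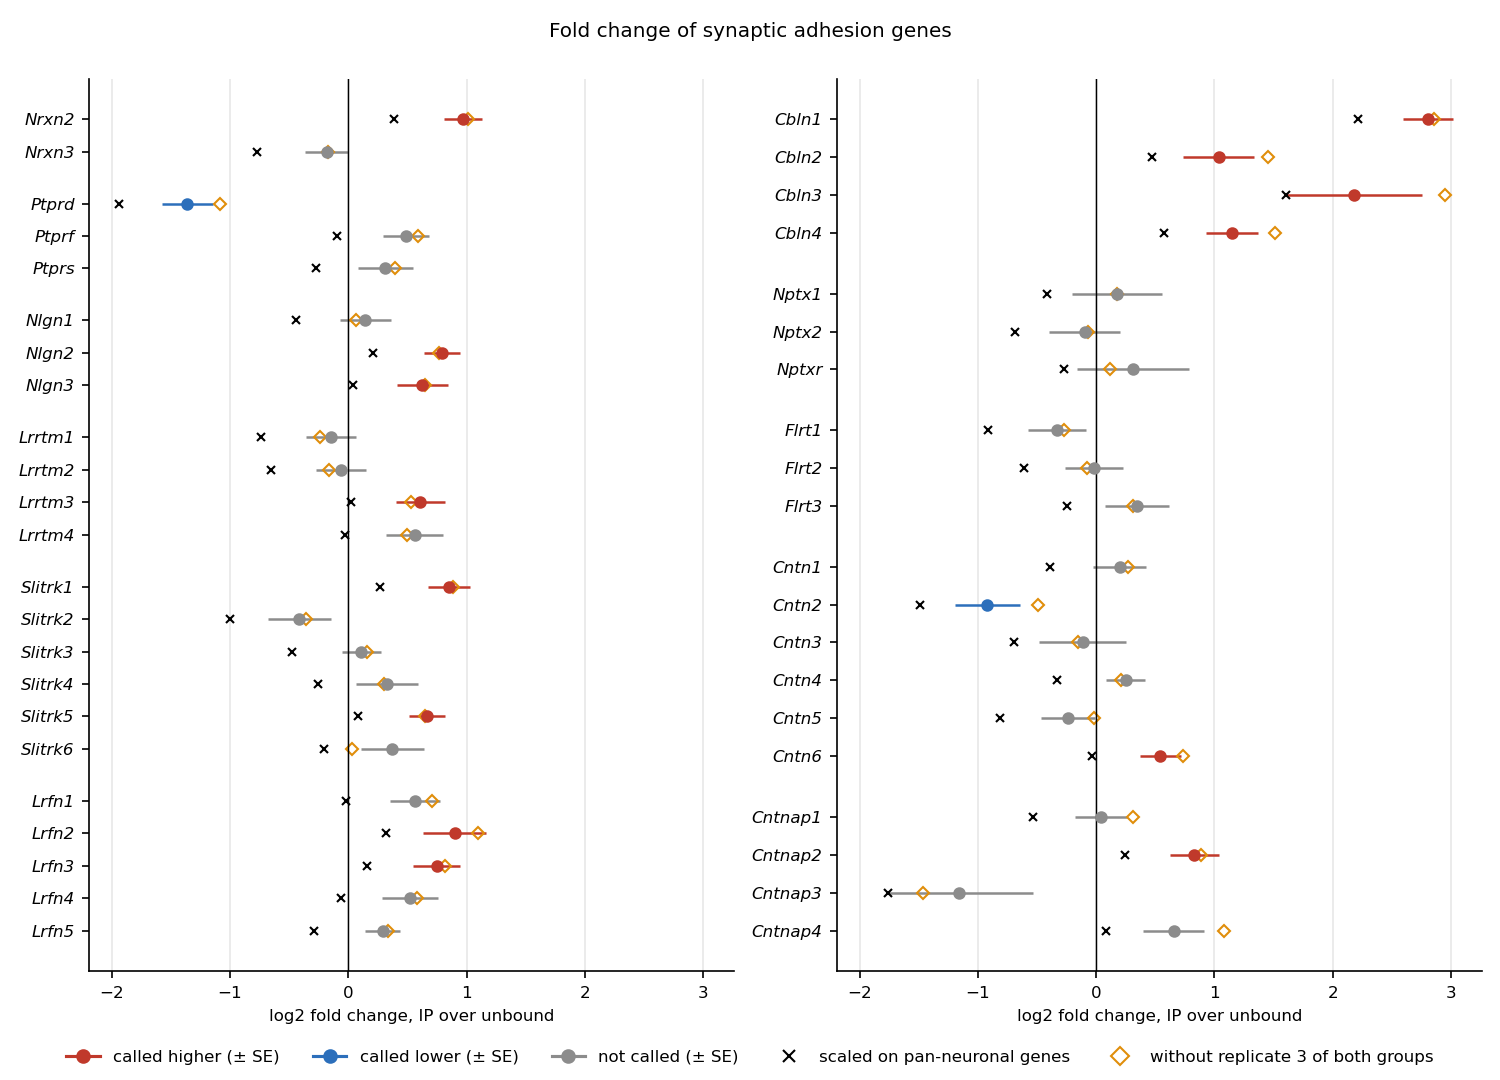
Log2 fold change of 43 of the 44 adhesion genes, IP over unbound, with bars of 1 SE (3 libraries a group); red, blue and grey points are genes called higher, called lower and not called. Crosses give the value after scaling on pan-neuronal markers and open diamonds the value without replicate 3 of both groups. Cbln1 lies farthest to the right among the called genes at 2.80, Ptprd is the lowest called gene at -1.36, and the crosses are shifted to the left of the points throughout.

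Start regions, the stretches next to the starts of these RNAs, are shown for 3 raised genes whose adjusted p was under 0.01. Of these 3, 1 is secreted into the cleft and 2 are postsynaptic. Cbln1, Nrxn2 and Slitrk5 also passed that threshold but are not shown. No start region was matched for Cbln1 and Nrxn2, and that of Slitrk5 held an annotated exon. Each region shown is the 250 bases before the RefSeq start (GRCm38.p6) and holds no annotated exon. It is written 5′ to 3′ on the gene's strand, the minus strand for all 3. These regions lie at chr2:172043467-172043716 for Cbln4, chr11:69837785-69838034 for Nlgn2 and chr14:108914240-108914489 for Slitrk1. Capitals mark matches on either strand to the GC box GGGCGG, the cAMP response core TGACG, the TATA box TATAAA or the core that LIM-homeodomain proteins are known to bind, TAATTA.
Cbln4: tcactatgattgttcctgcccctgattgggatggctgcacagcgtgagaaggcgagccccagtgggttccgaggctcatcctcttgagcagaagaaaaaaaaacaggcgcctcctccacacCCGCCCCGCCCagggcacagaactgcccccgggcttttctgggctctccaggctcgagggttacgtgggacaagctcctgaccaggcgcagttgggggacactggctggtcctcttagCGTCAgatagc
Nlgn2: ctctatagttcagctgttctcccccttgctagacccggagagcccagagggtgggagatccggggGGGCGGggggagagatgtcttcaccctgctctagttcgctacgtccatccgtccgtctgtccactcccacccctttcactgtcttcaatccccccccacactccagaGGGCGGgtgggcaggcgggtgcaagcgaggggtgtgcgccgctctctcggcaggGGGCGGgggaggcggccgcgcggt
Slitrk1: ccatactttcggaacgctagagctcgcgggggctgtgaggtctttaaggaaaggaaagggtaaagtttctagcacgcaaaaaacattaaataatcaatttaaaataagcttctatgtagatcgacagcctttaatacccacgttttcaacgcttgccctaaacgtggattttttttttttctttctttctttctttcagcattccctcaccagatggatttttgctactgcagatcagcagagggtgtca
Cbln4 held 2 GC boxes, which share 1 base, and 1 cAMP response core, Nlgn2 held 3 GC boxes, and the AT-richer Slitrk1 region held no match (GC content 60.8%, 67.6% and 40.4%). Over the 39 RefSeq start regions matched for 28 of the adhesion genes, the LIM-homeodomain core occurred in 1 (a Cntn4 region), the TATA box in 2, the GC box in 9 and the cAMP response core in 6. Among all 32851 regions of this length, 4.84% hold the LIM-homeodomain core, 12.4% the TATA box, 32.7% the GC box and 17.8% the cAMP response core. Such matches describe the letters only.

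Among the neurexins, Nrxn2 was called higher in IP under TMM scaling, and Nrxn3 was not called. Nrxn2 stood at 146, 142 and 107 CPM in IP libraries 1 to 3 and at 71.8, 69.2 and 60.1 CPM in unbound libraries 1 to 3. Each IP library lay well above the highest unbound one, a 1.96-fold difference (log2 fold change 0.97 ± 0.16 SE, adjusted p = 0.00171 in the edgeR test), and it was 1.01 without library 3 of both groups. Scaling on pan-neuronal markers lowered it to 0.39, which was not called. Nrxn3 had 201, 253 and 166 CPM in IP RNA and 248, 255 and 199 CPM in unbound RNA. Its groups overlapped (log2 fold change -0.18 ± 0.18 SE), although it was called lower on pan-neuronal scaling, at -0.77. Nrxn2 lies on chromosome 19 from 6418731 to 6544169 (plus strand, GRCm38), and its exons overlap those of Slc22a12 on the other strand, which had at most 0.161 CPM in any library.

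Of the LAR-type phosphatases, Ptprd was lower in IP under all scalings, while the values of Ptprf and Ptprs were above 0 and turned to -0.09 and -0.27 on pan-neuronal scaling. Ptprd, which binds Slitrk proteins and interleukin-1 receptor accessory proteins, had 108, 133 and 74.1 CPM in IP RNA and 241, 266 and 304 CPM in unbound RNA. The groups did not come near each other, with the lowest value in IP library 3 and the highest in unbound library 3, and the log2 fold change was -1.36 ± 0.21 SE (adjusted p = 0.00145 in the edgeR test). It was -1.09 without library 3 of both groups and -1.57 within lane 2, and each of the 17 alternative fits called it lower. Ptprs had 262, 266 and 149 CPM in IP RNA and 199.7, 198 and 146 CPM in unbound RNA. Ptprf had 46.5, 45.8 and 31.0 CPM in IP RNA and 34.5, 26.1 and 27.2 CPM in unbound RNA. In both, IP library 3 fell inside the unbound range, and neither was called (log2 fold changes 0.31 ± 0.24 and 0.49 ± 0.19 SE). Without IP library 3 both were called higher, Ptprs at 0.56 and Ptprf at 0.68, and Ptprf also without unbound library 1, at 0.66. With same-numbered libraries treated as pairs, Ptprf was also called higher, at 0.48 (adjusted p = 0.0390 in edgeR's test with the replicate block). The shares within the family, each gene's part of the family's summed CPM per kilobase of exon, differed between the fractions, and such shares do not depend on how libraries are scaled. Ptprd took 19.2% ± 1.56 of the length-corrected signal in IP and 43.8% ± 6.68 in unbound RNA, and Ptprs 62.0% ± 2.04 in IP and 44.5% ± 6.07 in unbound RNA (SD, n = 3 each). For both genes the shares of the groups did not overlap. Such separation was common, since over the 11 families 14 of 44 shares did not overlap with IP above and 13 with IP below. The shares are also linked, as a larger share of a gene lowers those of the rest of its family. Ptprd is a gene of 22822 exon bases on chromosome 4 from 75941238 to 78211961 (minus strand). The glial markers described above were lower in IP as well, with those of oligodendrocyte precursors summing to between 49.99 and 95.9 CPM in IP RNA and to between 294 and 431 CPM in unbound RNA, and their part in the Ptprd difference was not tested.

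Among the neuroligins, the postsynaptic ligands of neurexins, Nlgn2 was higher in IP, Nlgn3 was called higher by a narrow margin and Nlgn1 was not called. Nlgn2, found mainly at inhibitory synapses, had 175, 193 and 152 CPM in IP RNA and 105, 109.5 and 86.5 CPM in unbound RNA. Its groups were clearly apart, a 1.73-fold difference (log2 fold change 0.79 ± 0.15 SE, adjusted p = 0.00333 in the edgeR test) that ran from 0.69 to 0.90 over the fits that left out 1 library and fell to 0.20, not called, on pan-neuronal scaling. Nlgn3, found at both kinds of synapse, had 163, 176 and 108 CPM in IP RNA and 105, 109 and 75.7 CPM in unbound RNA. IP library 3 lay just inside the unbound range. The log2 fold change of Nlgn3 was 0.63 ± 0.22 SE (adjusted p = 0.0422 in the edgeR test), and the call was lost without any 1 library other than IP 3, with values of 0.47 to 0.73 in those fits. An annotated transcript, Gm21986, shares 3823 exon bases with Nlgn3 on the same strand. Nlgn1, the neuroligin of excitatory synapses, had 96.0, 96.5 and 70.1 CPM in IP RNA and 88.8, 92.9 and 55.9 CPM in unbound RNA. The groups overlapped (log2 fold change 0.15 ± 0.22 SE). Nlgn1 made up 12.4% ± 0.52 of the length-corrected neuroligin signal in IP and 17.3% ± 1.80 in unbound RNA, with no overlap of the groups, and Nlgn2 57.3% ± 3.16 in IP and 51.8% ± 2.62 in unbound RNA (SD, n = 3 each).

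Of the 4 Lrrtm genes, leucine-rich repeat proteins that bind neurexins or heparan sulfate, Lrrtm3 was the one called under TMM scaling, and its value was 0.02 on pan-neuronal scaling. It had 92.0, 91.4 and 68.1 CPM in IP RNA and 64.7, 60.6 and 39.8 CPM in unbound RNA. Each IP library was above the unbound ones, by little in the case of IP library 3, and the log2 fold change was 0.61 ± 0.21 SE (adjusted p = 0.0412 in the edgeR test). That call was lost in 10 of 17 alternative fits, among them those without IP library 1 (0.55), IP library 2 (0.55), unbound library 2 (0.69) or unbound library 3 (0.41). Lrrtm4 had 57.2, 64.6 and 41.5 CPM in IP RNA and 43.9, 41.4 and 25.4 CPM in unbound RNA. Its groups just overlapped, and its log2 fold change of 0.56 ± 0.24 SE was not called except with the replicate block (0.58, adjusted p = 0.00972 in the edgeR test) and without library 3 of both groups (0.50). Lrrtm2, the most abundant of the family per kilobase, had 189.7, 172 and 139.7 CPM in IP RNA and 205, 195 and 124 CPM in unbound RNA. Lrrtm1 had 48.0, 63.6 and 44.2 CPM in IP RNA and 63.3, 66.9 and 41.7 CPM in unbound RNA. These values overlapped fully between the groups and neither gene was called (log2 fold changes -0.06 ± 0.21 and -0.14 ± 0.21 SE), but both were called lower on pan-neuronal scaling, at -0.65 and -0.73. Shares within a family are linked, so a larger share of Lrrtm3 goes with smaller shares of other members. Lrrtm3 held 26.8% ± 0.72 of the length-corrected Lrrtm signal in IP and 19.4% ± 0.42 in unbound RNA, and Lrrtm2 37.8% ± 2.66 in IP and 43.3% ± 0.67 in unbound RNA (SD, n = 3 each), without overlap of the groups for either.

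Slitrk1 and Slitrk5 were higher in IP among the 6 Slitrk genes, whose products are postsynaptic ligands of the phosphatases Ptprd and Ptprs. Slitrk1 had 164, 204 and 145 CPM in IP RNA and 82.5, 114 and 87.9 CPM in unbound RNA. Slitrk5 had 86.4, 86.8 and 69.7 CPM in IP RNA and 54.0, 55.4 and 43.7 CPM in unbound RNA. In both, the lowest IP library was above the highest unbound library, and the differences were 1.80-fold and 1.59-fold. The log2 fold changes were 0.85 ± 0.18 SE (adjusted p = 0.00544) and 0.67 ± 0.15 SE (adjusted p = 0.00792, both in the edgeR test), and on pan-neuronal scaling 0.27 and 0.08, neither called. Slitrk2 tended to the other side, with 32.4, 33.6 and 17.8 CPM in IP RNA and 39.9, 43.6 and 28.0 CPM in unbound RNA. The groups overlapped (log2 fold change -0.41 ± 0.26 SE, not called), yet within each same-numbered pair the IP value was below the unbound one, and the replicate block called it lower (-0.44, adjusted p = 0.0293 in the edgeR test), as did the fit without library 3 of both groups (-0.36) and pan-neuronal scaling (-0.998). Slitrk4 was higher in IP in each such pair, 60.5, 56.0 and 35.1 CPM against 48.5, 44.7 and 27.5 CPM in unbound RNA. It was called with the block only (0.33, adjusted p = 0.0418 in the edgeR test). Slitrk3, which acts at inhibitory synapses through Ptprd, was not called (0.11 ± 0.16 SE) and turned lower on pan-neuronal scaling (-0.47). Slitrk6 was the one Slitrk gene highest in IP library 3 (30.8 CPM) and lowest in IP library 2 (15.4 CPM). Its log2 fold change of 0.37 ± 0.26 SE became a call at 0.63 without IP library 2.

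The 5 Lrfn genes, whose products bind postsynaptic scaffolds or the LAR-type phosphatases, all had mean levels in IP above those in unbound RNA under TMM scaling, with Lrfn1, Lrfn4 and Lrfn5 turning below 0 on pan-neuronal scaling, and 2 were called. Lrfn3 had 25.04, 26.1 and 18.1 CPM in IP RNA and 16.0, 12.7 and 12.6 CPM in unbound RNA. Lrfn2 had 8.12, 9.64 and 5.58 CPM in IP RNA and 3.43, 4.79 and 4.27 CPM in unbound RNA. No IP library reached down into the unbound range for either gene. The log2 fold changes were 0.75 ± 0.20 SE (adjusted p = 0.0140) and 0.90 ± 0.27 SE (adjusted p = 0.0232, both in the edgeR test). The Lrfn3 call was lost without IP library 1 (0.70), IP library 2 (0.66) or unbound library 2 (0.70), and the Lrfn2 call without IP library 1 (0.88), IP library 2 (0.73) or unbound library 1 (0.81). Lrfn1 had 10.1, 8.26 and 6.999 CPM in IP RNA and 5.76, 5.38 and 6.07 CPM in unbound RNA. Its groups did not overlap, but it just missed the threshold (log2 fold change 0.56 ± 0.21 SE, adjusted p = 0.0578 in the edgeR test). Lrfn5, by far the most abundant of the family, had 124, 127 and 97.1 CPM in IP RNA and 103, 94.5 and 87.9 CPM in unbound RNA, and Lrfn4 had 13.3, 13.4 and 8.49 CPM in IP RNA and 8.22, 9.41 and 6.79 CPM in unbound RNA. For Lrfn4 and Lrfn5 it was again IP library 3 that overlapped the unbound libraries. Lrfn1, Lrfn4 and Lrfn5 were each called higher without IP library 3, at 0.71, 0.73 and 0.43. On pan-neuronal scaling no Lrfn gene was called.

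All 4 cerebellins, secreted C1q-family proteins known for bridging neurexins to delta-type glutamate receptors, were called higher in IP, with values above 0 under each scaling. Cbln1 had 221, 204 and 148 CPM in IP RNA and 33.9, 24.2 and 24.0 CPM in unbound RNA. Its lowest IP library stood several times above its highest unbound library, a 6.98-fold difference in the fit (log2 fold change 2.80 ± 0.21 SE, adjusted p = 8.85e-05 in the edgeR test). Each of the 17 alternative fits called it, with 2.22 on pan-neuronal scaling and 2.67 within lane 2. Cbln4, which also binds the netrin receptors Dcc and Neo1, had 64.0, 69.5 and 56.0 CPM in IP RNA and 22.3, 24.1 and 39.2 CPM in unbound RNA. Cbln2 had 50.5, 47.9 and 52.7 CPM in IP RNA and 15.4, 20.0 and 38.1 CPM in unbound RNA. For both, the IP libraries were close to one another, while unbound library 3 was clearly above unbound libraries 1 and 2. The log2 fold changes were 1.15 ± 0.22 SE (adjusted p = 0.00352) and 1.04 ± 0.30 SE (adjusted p = 0.0229, both in the edgeR test), and without library 3 of both groups they were 1.51 and 1.46. The Cbln2 call was lost without IP library 1 (1.05) or unbound library 2 (0.92), within lane 2 (0.95) and on pan-neuronal scaling (0.47). Cbln3, which is secreted only in company with Cbln1, was scarce, at 1.28, 1.93 and 0.98 CPM in IP RNA and 0.20, 0.20 and 0.50 CPM in unbound RNA. These levels rest on 44 to 60 reads in IP and 7 to 21 reads in unbound libraries, and the groups did not overlap. With 8 and 7 reads in unbound libraries 1 and 2, Cbln3 passed the count filter only through the IP libraries, where it was high. Its call is therefore not separate support for a rise of the family. With a minimum of 1 CPM in 3 libraries it was not tested. The log2 fold change of Cbln3 was 2.18 ± 0.57 SE (adjusted p = 0.0141 in the edgeR test), a call lost without IP library 2 (1.89) or unbound library 2 (1.98).

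Corrected for exon length, Cbln1 had the highest level of the 44 genes in IP, 62.9 ± 12.6 CPM per kilobase, against 9.01 ± 1.85 in unbound RNA (SD, n = 3 each). In unbound RNA the means of Cbln1, Cbln2 and Cbln4 were alike within their spread, with Cbln2 at 8.48 ± 4.15 and Cbln4 at 9.83 ± 3.20 CPM per kilobase. Their order differed between unbound libraries. In unbound library 1 the shares of Cbln1, Cbln2 and Cbln4 in the cerebellin signal were 46.1%, 22.0% and 31.7%. In unbound library 3, which stood apart, they were 22.8%, 38.0% and 38.9%. In IP RNA Cbln2 and Cbln4 stood at 17.4 ± 0.83 and 21.8 ± 2.33 CPM per kilobase. Cbln1 therefore made up 61.0% ± 4.26 of the cerebellin signal in IP and 34.4% ± 11.6 in unbound RNA, and the lowest IP share, 56.3%, was above the highest unbound share, 46.1%. With 3 libraries against 3, an exact two-sided permutation test of such a share cannot give a p below 0.1. The shares of Cbln2 and Cbln4 were lower in IP, with 17.3% ± 3.27 for Cbln2 in IP and 29.9% ± 7.97 in unbound RNA, and 21.4% ± 1.53 for Cbln4 in IP and 35.5% ± 3.61 in unbound RNA. Cbln1 lies on chromosome 8 from 87468405 to 87472609 and Cbln4 on chromosome 2 from 172036233 to 172043466, both on the minus strand. Slc17a6, the vesicular transporter of glutamatergic neurons, had 669, 591 and 534 CPM in IP RNA and 124, 105 and 195 CPM in unbound RNA, and its part in the cerebellin differences was not tested. Of the delta receptors, Grid1 averaged 31.5 ± 10.9 CPM in IP RNA and 20.4 ± 4.82 CPM in unbound RNA. It was not called (log2 fold change 0.62 ± 0.28 SE) except with the replicate block, without IP library 3 and without library 3 of both groups, where it was higher.

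**Figure D2:**
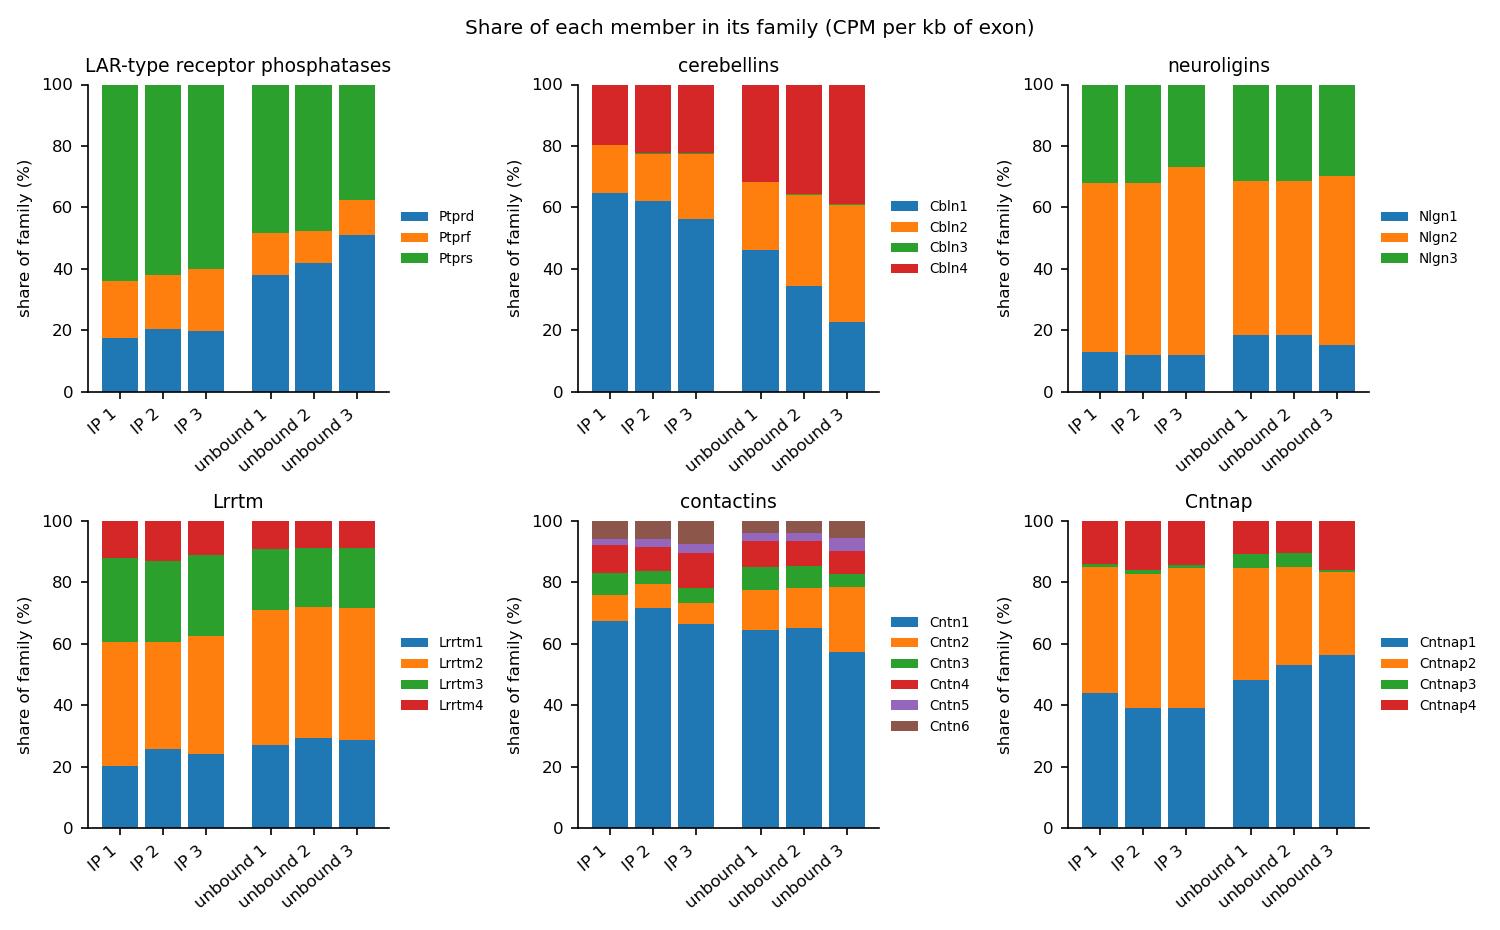
Share of each gene in the summed CPM per kilobase of exon of its family, in percent, for 6 of the families, for each IP and each unbound library. Cbln1 holds 56.3% to 64.6% of the cerebellin signal in IP and 22.8% to 46.1% in unbound RNA, Ptprd holds 17.4% to 20.4% of its family in IP and 38.1% to 51.2% in unbound RNA, and Cbln3 is barely visible.

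The neuronal pentraxins, secreted proteins that gather AMPA-type glutamate receptors, and their membrane-bound relative Nptxr were not called in any fit. Nptx1 had 92.1, 131 and 53.7 CPM in IP RNA and 81.3, 113 and 50.3 CPM in unbound RNA. Nptx2 had 8.08, 8.84 and 4.599 CPM in IP RNA and 8.19, 9.30 and 5.49 CPM in unbound RNA. In both fractions both genes were highest in library 2 and lowest in library 3, and the groups overlapped. Within each same-numbered pair Nptx1 was higher in IP and Nptx2 was lower, and the replicate block called neither. The log2 fold changes were 0.18 ± 0.38 and -0.10 ± 0.30 SE. Nptxr had 1.47, 1.22 and 1.02 CPM in IP RNA and 1.13, 1.34 and 0.53 CPM in unbound RNA, on 22 to 62 reads (0.32 ± 0.47 SE). That low level is uncertain. An annotated gene, Npcd, shares 890 exon bases with Nptxr on the same strand and was listed at 0 in all 6 libraries. Ambiguous reads were listed apart from the genes in each library. Which genes those reads fit, and by what rule they were set apart, is not given in the sources used here.

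None of the 3 Flrt genes, whose products bind latrophilins and Unc5 receptors, was called. Flrt3 had 80.3, 61.9 and 44.2 CPM in IP RNA and 62.4, 51.1 and 33.5 CPM in unbound RNA. IP was above unbound in each same-numbered pair while the groups overlapped widely, and the log2 fold change of 0.34 ± 0.27 SE was called with the replicate block only (0.35, adjusted p = 0.0355 in the edgeR test). Flrt2 had 62.4, 72.8 and 44.8 CPM in IP RNA and 66.9, 74.1 and 41.4 CPM in unbound RNA (-0.02 ± 0.25 SE). Flrt1 had 33.7, 35.0 and 19.7 CPM in IP RNA and 37.9, 44.1 and 28.9 CPM in unbound RNA (-0.33 ± 0.24 SE), and it was called lower on pan-neuronal scaling (-0.91). Flrt1 was below unbound in each same-numbered pair, and with the replicate block its value was -0.35 ± 0.13 SE (adjusted p = 0.0608 in the edgeR test). Their latrophilin partners, listed under their newer names, were not called under TMM scaling with all libraries, the default count filter and no block. Adgrl1 averaged 303 ± 67.6 CPM in IP RNA and 248 ± 52.5 CPM in unbound RNA, Adgrl2 82.2 ± 12.1 CPM in IP RNA and 86.0 ± 4.49 CPM in unbound RNA, and Adgrl3 164 ± 32.8 CPM in IP RNA and 122 ± 6.36 CPM in unbound RNA. Adgrl3 came nearest to a call, with no overlap of the groups (log2 fold change 0.42 ± 0.16 SE, adjusted p = 0.0644 in the edgeR test). It was called higher with the replicate block, with no count filter, without IP library 3 and without library 3 of both groups, and Adgrl2 was called lower on pan-neuronal scaling.

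Contactins are immunoglobulin-domain proteins anchored in the axonal membrane, and of the 6 genes Cntn6 was called higher and Cntn2 lower in IP. Cntn2, which pairs with Cntnap2 at the juxtaparanode and is made by both neurons and oligodendrocytes, had 55.3, 49.4 and 25.7 CPM in IP RNA and 73.9, 72.0 and 101 CPM in unbound RNA. The groups did not overlap, and library 3 was the extreme in each, lowest in IP and highest in unbound RNA. The log2 fold change was -0.92 ± 0.28 SE (adjusted p = 0.0269 in the edgeR test), -0.62 without IP library 3 and -0.49 without library 3 of both groups, still called. With the replicate block it was -0.97 and not called (adjusted p = 0.0637 in the edgeR test), and within lane 2 it was -1.10, not called. The oligodendrocyte marker sum given above was lower in IP and highest in unbound library 3, at 7250 CPM, and its part in the Cntn2 difference was not tested. Cntn6 had 26.1, 24.96 and 20.1 CPM in IP RNA and 15.9, 14.4 and 18.5 CPM in unbound RNA. Although the groups were apart, by little between IP library 3 and unbound library 3, the call (log2 fold change 0.54 ± 0.17 SE, adjusted p = 0.0323 in the edgeR test) was lost without IP library 1 (0.48), IP library 2 (0.52), unbound library 1 (0.57) or unbound library 2 (0.47), and the value was -0.04 on pan-neuronal scaling. Cntn1, the most abundant contactin and the partner of Cntnap1 at the paranode, had 439, 455 and 264 CPM in IP RNA and 372, 362 and 275 CPM in unbound RNA. IP library 3 was below all unbound libraries while the others were above them (0.20 ± 0.22 SE, not called). Cntn4 averaged 46.2 ± 7.01 CPM in IP RNA and 38.9 ± 5.77 CPM in unbound RNA (0.25 ± 0.17 SE). Cntn3 and Cntn5 had log2 fold changes of -0.11 ± 0.37 and -0.24 ± 0.23 SE, and neither these nor Cntn4 were called under TMM scaling, though Cntn5 was called lower on pan-neuronal scaling (-0.82).

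Cntnap2, a neurexin-like protein that anchors potassium channels along axons, was the one Cntnap gene called. It had 210.4, 221 and 139 CPM in IP RNA and 129, 102 and 90.4 CPM in unbound RNA. The lowest IP value was just above the highest unbound value, and the log2 fold change was 0.83 ± 0.21 SE (adjusted p = 0.0117 in the edgeR test), or 0.88 without library 3 of both groups. The call was lost within lane 2 (0.68) and on pan-neuronal scaling (0.24). Cntnap4 had 44.4, 49.8 and 26.9 CPM in IP RNA and 23.7, 20.4 and 32.8 CPM in unbound RNA. In the third pair the order was turned round, with unbound above IP, and the log2 fold change of 0.66 ± 0.26 SE missed the threshold (adjusted p = 0.0665 in the edgeR test). It was called at 0.91 without IP library 3, at 0.86 without unbound library 3, at 1.08 without library 3 of both groups, and also by DESeq2 and with no count filter. Cntnap3 had 3.16, 3.57 and 2.13 CPM in IP RNA and 9.37, 8.98 and 1.39 CPM in unbound RNA. Unbound library 3 alone lay below the IP libraries, so that a log2 fold change of -1.16 ± 0.62 SE was not called while -1.65 without unbound library 3 was (adjusted p = 0.000872 in the edgeR test). The striatal and cortical marker sum given above was also lowest in unbound library 3. Cntnap1 had 131, 114 and 68.7 CPM in IP RNA and 98.1, 96.6 and 109 CPM in unbound RNA, and showed no called difference (0.04 ± 0.22 SE). Cntnap5a, Cntnap5b and Cntnap5c averaged 39.9, 27.0 and 7.38 CPM in IP RNA and 33.1, 30.4 and 6.88 CPM in unbound RNA. None of them was called, though Cntnap5a was called higher without IP library 3 and without library 3 of both groups, and Cntnap5b lower on pan-neuronal scaling. Cntnap2 made up 43.3% ± 2.34 of the length-corrected signal of the 4 listed Cntnap genes in IP and 31.8% ± 4.80 in unbound RNA, and Cntnap1 40.8% ± 2.89 in IP and 52.6% ± 4.099 in unbound RNA (SD, n = 3 each).

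**Figure D3:**
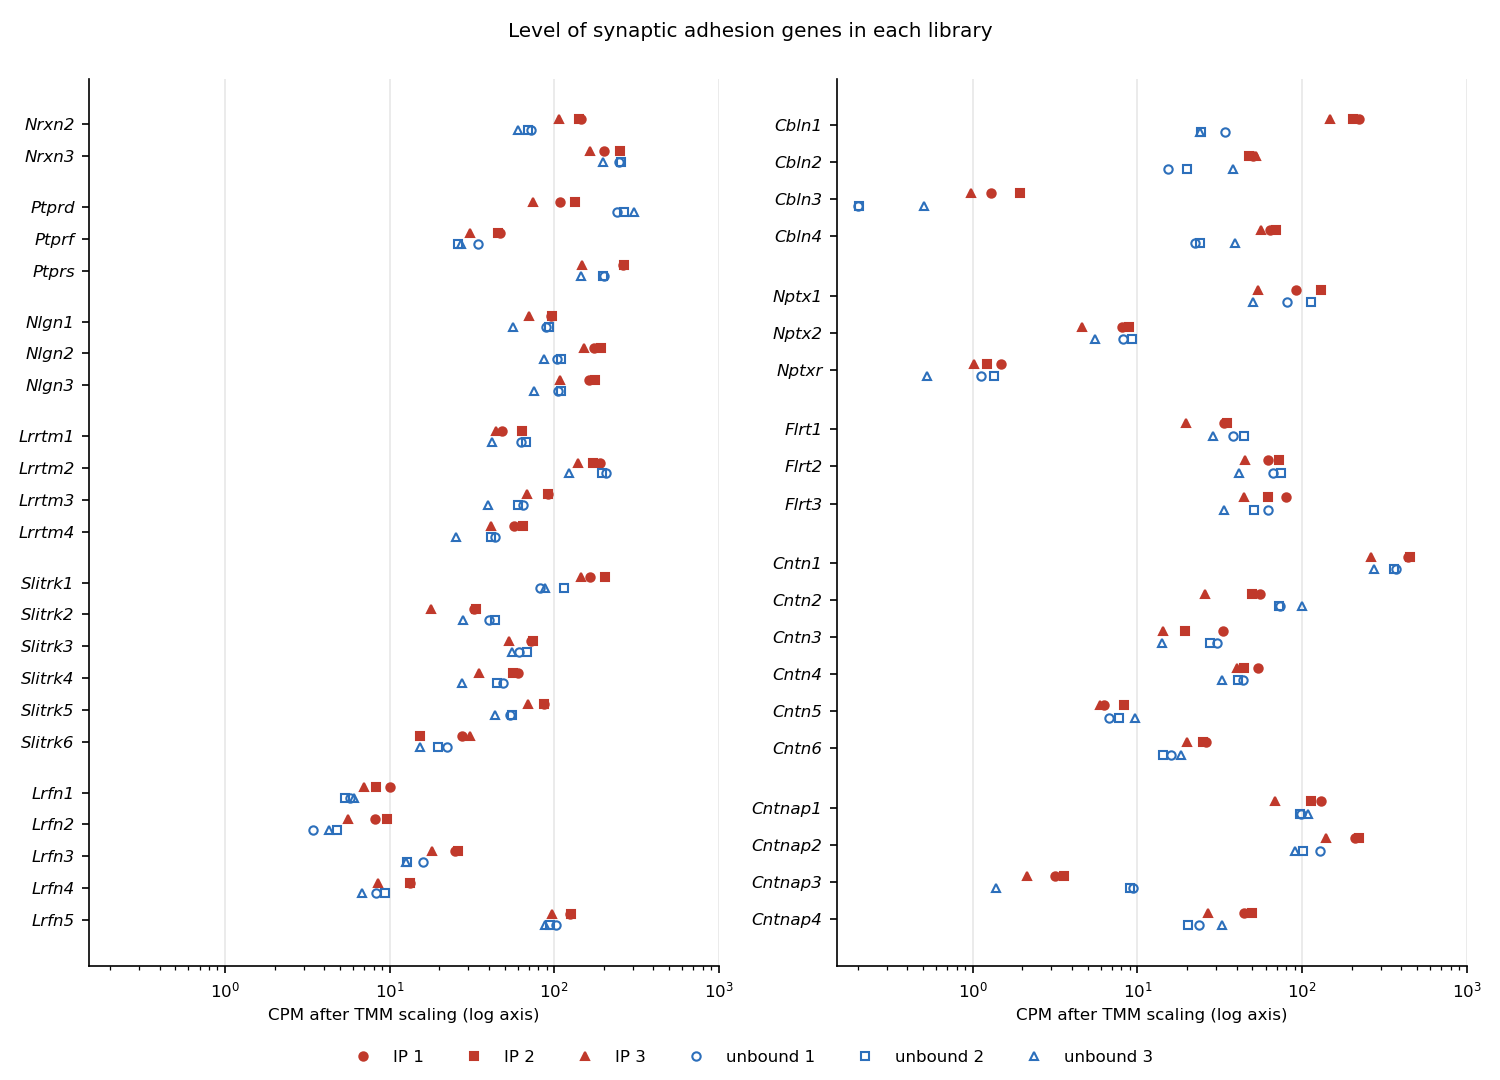
Level of 43 of the 44 adhesion genes in CPM after TMM scaling (log axis), with IP libraries as filled red symbols above the open blue symbols of the unbound libraries and the symbol shape giving the replicate. Cbln1 shows the widest gap between groups, 148 CPM or more in IP against 33.9 CPM or less in unbound RNA, Ptprd shows the opposite order, and the red triangles of IP library 3 lie to the left of the other red symbols for most genes.

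The direct extracellular partners of these proteins and the scaffolds behind them were looked at for comparison. Of the partner genes 37 were tested, and 9 of them rose and 4 fell in IP, with a median log2 fold change of 0.18. With all libraries and no block, the count higher was near the share over all genes, 21.1%. The count lower was below the share over all genes, 23.2%. That difference was not itself tested. The number higher was 4 without IP library 1 (15.5% of all genes), 4 without IP library 2 (15.5%) and 15 without IP library 3 (20%). It was 6 without unbound library 1 (16.6%) and 5 without unbound library 2 (14.3%). Without library 3 of both groups it was 15 (26%), and with the replicate block 13 (23.3%). The number lower was 6 without unbound library 3 (25.8%). Among those higher, Nxph4 and Nxph1, members of a secreted family known for binding neurexins, had log2 fold changes of 3.34 ± 0.31 and 1.13 ± 0.24 SE. Mdga1, which binds neuroligins and keeps them from neurexins, was at 1.81 ± 0.15 SE, and Il1rapl2, a relative of a Ptprd ligand, at 1.34 ± 0.25 SE. Nxph4 averaged 35.0 ± 6.42 CPM in IP RNA and 3.45 ± 1.36 CPM in unbound RNA, a 10.1-fold difference. Among those lower were Il1rap, a ligand of Ptprd, at -2.55 ± 0.21 SE, with 3.68 ± 0.71 CPM in IP RNA and 21.6 ± 2.04 CPM in unbound RNA, Ntng2 at -1.59 ± 0.25, Unc5b at -1.18 ± 0.23 and C1ql2 at -1.59 ± 0.31 SE. Of the other neurexophilins, Nxph2 (-0.56 ± 0.77 SE) and Nxph3 (0.30 ± 0.32 SE) were not called. Of 30 intracellular scaffold genes 6 were higher, among them Dlg4 and Ppfia4, and 6 lower, among them Shank3 and Homer2, with a median of -0.02. With all libraries, both scaffold counts were near the shares over all genes. The number of scaffold genes higher was 2 without IP library 1 (15.5% of all genes), 2 without IP library 2 (15.5%) and 3 without IP library 3 (20%). It was 1 without unbound library 1 (16.6%) and 3 without unbound library 2 (14.3%). The number lower was 13 without unbound library 3 (25.8% of all genes) and 12 without library 3 of both groups (27.3%). The median was -0.20 in the latter fit. Both of these lower counts stood above the shares over all genes, a difference that was not itself tested.

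Library 3 of each fraction had low levels of most adhesion genes. IP library 3 had the lowest of the 3 IP levels for 42 of the 44 genes (95.5%), all but Cbln2 and Slitrk6, where 35.4% of all genes tested were lowest in it. The median difference between IP library 3 and the mean of IP libraries 1 and 2 was -0.51 on the log2 scale for the adhesion genes and 0.00 for all genes. The extracellular partners behaved in the same way, with 32 of 37 lowest in IP library 3 and a median of -0.52, and so did all 6 of the latrophilin and Cntnap5 genes. The scaffold genes did not, with 6 of 30 lowest in that library and a median of 0.04, nor did the pan-neuronal markers, with 6 of 20 and a median of 0.10. In the unbound fraction, library 3 was lowest for 31 of the 44 adhesion genes (70.5%, against 32% of all genes) and for 21 of 30 scaffold genes, and it was highest for 10 of the 44 (49.3% of all genes). Summed over the 44 genes, IP libraries 1 to 3 held 4413, 4593 and 3194 CPM and unbound libraries 1 to 3 held 3680, 3804 and 3011 CPM. The gap between the fractions was therefore smallest in the third pair. Counted within same-numbered pairs, 25 adhesion genes were higher in IP in all 3 pairs and 6 lower in all 3, where 35.6% of all genes tested went up and 35.6% down in all 3. Library 3 of both groups ran in lane 2 together with library 1, and the read shares that were not unique, ambiguous or outside features in IP library 3 were within 1 percentage point of those in the other IP libraries. Between the groups these shares differed more. Reads that did not map uniquely were 43.8% to 45.0% of those listed in IP and 31.8% to 32.9% in unbound libraries, ambiguous reads 1.58% to 1.64% in IP and 7.08% to 9.02% in unbound libraries, and reads outside features 7.57% to 7.998% in IP and 12.5% to 13.5% in unbound libraries. The part of these shares in the fold changes was not tested.

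**Figure D4:**
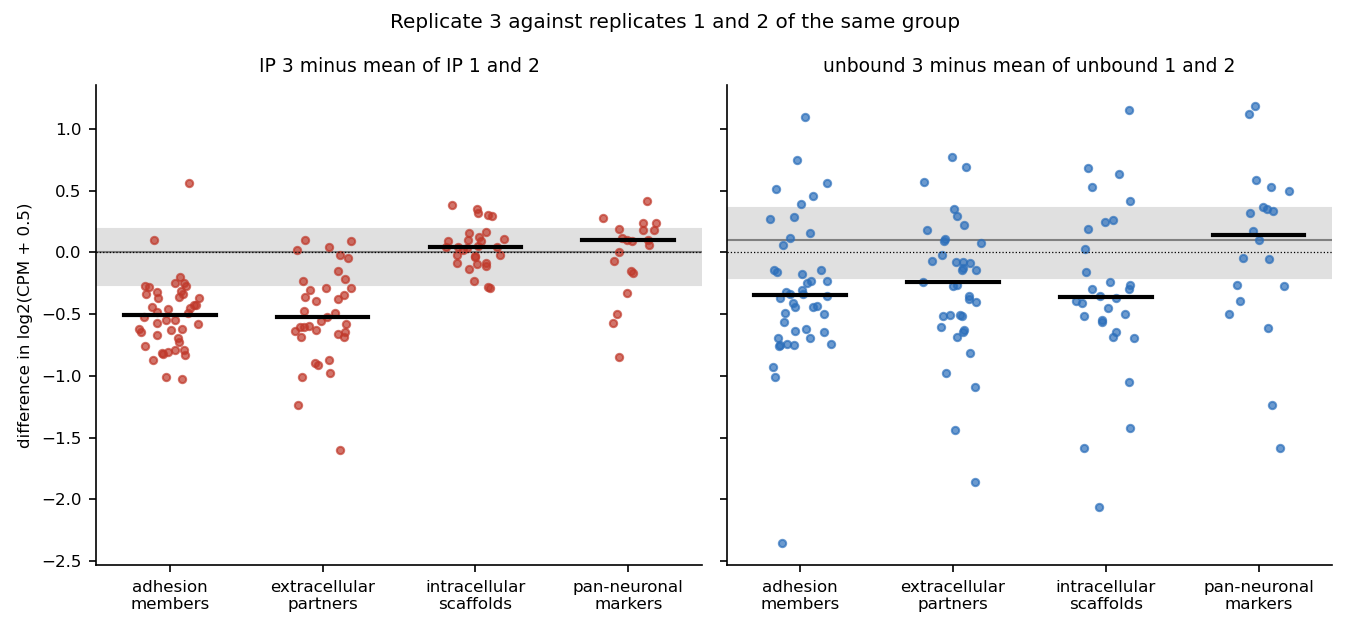
Difference between replicate 3 and the mean of replicates 1 and 2 of the same group in log2(CPM + 0.5), left for IP and right for unbound libraries; each point is a gene, bars are list medians, and the grey line and band are the median and the middle range between quartiles of all genes tested. In IP the adhesion genes and their extracellular partners centre on -0.51 and -0.52, and the scaffolds and pan-neuronal markers on 0.04 and 0.10.

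The 44 genes were long, with a median of 5948.5 exon bases in GENCODE M21, against 4374 for the 14919 tested genes whose symbol was found there, and 8 of them span more than 500 kb of genome. Cntnap2 spans from 45059357 to 47304213 on chromosome 6 and Nrxn3 from 88722876 to 90334935 on chromosome 12. Exons of 13 of the genes overlap an annotated exon of another gene, and for 5 of them, among which are Nrxn2, Lrrtm2, Nptxr and Cntnap1, that gene is itself listed in the files. The strand setting of the counting is not given in the sources used here, so reads from a gene and its antisense partner cannot be told apart. Ctnna1, which overlaps Lrrtm2 on the other strand by 95 exon bases, had 74.6 ± 3.35 CPM in IP RNA and 70.2 ± 9.30 CPM in unbound RNA.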

How the data were processed

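RNA-seq libraries of hypothalamic IP and unbound RNA (3 each) were grouped by the sample type in the labels. The authors deposited unnormalised read counts for each gene, made with HTSeq from STAR 2.0.0e alignments to mm10, per the submitters' processing notes. Which annotation, strand setting and rule for overlapping genes were used is not given in the sources used here. The 6 entries naming no gene were left out throughout, and reads assigned to genes were 45.0% to 47.7% of those listed.

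The tests ran in R 4.3.3 on edgeR 4.0.16, after TMM scaling, by robust quasi-likelihood fits on group. Genes passed filterByExpr at its defaults, which ask for 15 counts in total and a level equal to about 10 counts in at least as many libraries as a group holds. A gene could thus pass through its levels in a single group. Benjamini-Hochberg adjustment ran over the 16991 genes that passed, at a threshold of 0.05. The SE of a log2 fold change is its size over the square root of F, and SD is over libraries, so errors reflect replicates and not counting alone. The test was run on simulated data with independent libraries and the same dispersion for all genes. That setting differs from these data, so it does not give the error rate of the calls here. Positions, exon lengths and overlaps came from GENCODE M21 (GRCm38), matched by symbol for all 44 genes. Start sequences came from RefSeq (GRCm38.p6).

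The members, the gene lists, the tests and the alternatives were chosen with earlier results of these data known, and the family shares and the look at replicate 3 after values were seen. Values in each library are given for up to 3 members of a family with the smallest adjusted p and for the most abundant per kilobase, and most other members were added. The values of 1 member and 1 partner gene are not reported here. Partner genes named are the 4 with the smallest adjusted p in each direction. The scaffold genes, Grid1 and Slc17a6 were picked after their values were seen.

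Replicate numbers are shared between groups. The deviations of same-numbered libraries from their group means correlated over genes at 0.24, 0.26 and 0.28, each library most with its own number. They were taken as pairs from the data, since no label says so. Replicates of a group differed beyond counting noise (chi-square per degree of freedom 23.0 to 136), so none was counted as a copy.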

Additional observations from a re-analysis of the deposited data

How the results depend on the processing

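Over 17 alternatives the 44 members gave 747 values, of which 619 kept their direction and call, 54 lost a call, 34 gained one, 2 reversed and 38 moved without a call. Scaling on pan-neuronal markers moved most: 3 members were then higher and 10 lower, 682 genes higher and 7662 lower, and 3 partner genes higher and 12 lower. The 2 reversed values were Cntn6 at -0.036 and Slitrk3 at -0.47. Without this setting, 609 of 703 values kept direction and call. Lane 2 alone, with 2 libraries a group, gave 4 members higher and 1 lower, 1297 genes higher and 2538 lower, and 2 partner genes higher. Without library 3 of both groups 4 members were lower (27.3% of all genes) and 15 partner genes higher (26%). Leaving out each library in turn gave 8 to 20 members and 4 to 15 partner genes higher, 2 to 3 members and 4 to 6 partner genes lower, 2489 to 4139 genes higher and 3263 to 4448 lower. With the replicate block, which uses the pairing, 18 members and 13 partner genes were higher (23.3% of all genes). The block gave 2 members and 4 partner genes lower (23.6%). It ended the call of Cntn2, gained Flrt3, Lrrtm4, Ptprf, Slitrk4 and Slitrk2, and changed no other call among the members. Median-ratio scaling, library size alone, other count filters, DESeq2 1.42.0, voom in limma 3.58.1 and lane as a covariate gave 11 to 16 members higher and 2 lower. The cause of these shifts was not tested. With 3 libraries a group, differences under about 2-fold often missed the threshold, and low genes such as Cbln3 and Nptxr rest on few reads.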
